A study of Mus musculus with 12 samples.

Results

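The set described here holds 168 mouse zinc finger genes named Zfp followed by a number of 3 digits, measured in eosinophils of blood and of 2 fat depots. Of 314 protein-coding genes with such a name in the GENCODE M21 annotation, a member had to reach 5 CPM, the reads of a gene scaled to the same library total, in at least 4 of the 12 libraries. The members were thus chosen by their read level in these libraries, and the set was selected on the lower level of Zfp genes in gonadal adipose tissue than in blood, so the gonadal values and counts of the members are a description of that choice, carry no p-value and support nothing. The 5 mice were untreated wild-type FVB/NJ males, kept on chow to an age of 20 weeks. Each of the 3 groups held 4 libraries: blood (mice 2807, 2771, 2683 and 2668), gonadal adipose (mice 2846, 2807, 2683 and 2668) and subcutaneous adipose (mice 2846, 2807, 2771 and 2668). In every group live CD45+ CD11b+ Siglec-F+ cells had been sorted, and F4/80 was stained but is not part of the stated gate. Only the adipose samples had been digested, with 1 mg/mL collagenase type II at 37 C for 45 min, so tissue and digestion cannot be told apart.

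Most Zfp genes encode C2H2 zinc finger proteins, in which a pair of cysteines and a pair of histidines hold a zinc ion and fold a short finger that reads a few bases of DNA. Rows of such fingers give each protein its own target sequence. Many of the proteins also carry a KRAB domain, which recruits the corepressor KAP1 (Trim28) and, through it, the histone methyltransferase Setdb1 and HP1 proteins, so that the target is packed into heterochromatin. KRAB zinc finger genes lie in clusters of recent duplicates, and several of them silence retroviral elements. Eosinophils are granulocytes that leave the bone marrow, circulate briefly and settle in tissues, adipose tissue among them.

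The libraries held 12477671 to 23734940 estimated reads, except the subcutaneous library of mouse 2846 with 4379954. Mitochondrial ribosomal RNA took 27.99% of its reads and 4.64% to 8.74% elsewhere. All 14 eosinophil genes of a written list were detected, and their summed level was 4207 to 5258 CPM in blood, 2079 to 5707 CPM in gonadal and 1746 to 5443 CPM in subcutaneous libraries. Siglecf, the sorted surface lectin, was at 273 ± 44.3 CPM in blood, 341 ± 138 CPM in gonadal and 307 ± 142 CPM in subcutaneous adipose tissue (SD, n = 4 each). The granule genes Epx and Prg2 were low in blood, at 4.45 ± 2.02 and 3.52 ± 1.71 CPM. In each depot 6 of the 14 genes were called lower than in blood and 1 higher. Over all genes tested, 11.4% were called lower in subcutaneous and 11.6% in gonadal adipose tissue, and 15.4% higher in both. The samples hold many cells, so for every value here a change in the mix of cells and a change of RNA per cell cannot be told apart.

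Of the 314 genes, 250 passed the expression filter of the test and 64 did not, and 7 of the latter had no read in any library. All 168 members passed, and 103 of them reached 5 CPM in all 12 libraries. There were 155 members that reached 5 CPM in at least 1 library of every group. Zfp629, Zfp658, Zfp667 and Zfp956 reached it in no blood library, and Zfp189, Zfp563, Zfp688 and Zfp963 in no adipose library. These 8 entered the set only through the tissue in which they were high, so a difference between blood and fat was built into their choice. The 3 members nearest the threshold, by the fourth highest of the 12 values, were Zfp963 (5.07 CPM), Zfp691 (5.19 CPM) and Zfp563 (5.20 CPM), and the 3 nearest genes outside it were Zfp930 (4.80 CPM), Zfp472 (4.73 CPM) and Zfp712 (4.44 CPM). In the longest annotated coding sequence of each member, 164 had at least 1 C2H2 pattern, with a median of 9 and a maximum of 36 in Zfp142. Zfp330, Zfp703, Zfp707 and Zfp839 had no such pattern. The search used fixed spacings, so a miss does not show that a protein lacks such a finger. A KRAB A box was matched in 82 members, which had a median of 11 C2H2 patterns, and not in the other 86, which had a median of 7. Members were of modest abundance, with a median of 17.0 CPM over the 12 libraries and 15 above 100 CPM. The median was 10.9 CPM for the members with a KRAB match and 26.3 CPM for those without.

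Per transcript length, Zfp106 had the highest level in blood, with 77.5 ± 23.4 TPM, a level corrected for length. Zfp236 (27.8 ± 26.2 TPM), Zfp207 (25.6 ± 6.34 TPM) and Zfp638 (24.99 ± 9.91 TPM) followed, and these 3 did not differ beyond their spread. Zfp652 came next with 19.5 ± 4.84 TPM. Zfp106 and Zfp638 encode RNA-binding proteins.

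As a sum, the 168 members took 7119 ± 268 CPM in blood, 5240 ± 439 CPM in gonadal and 5455 ± 412 CPM in subcutaneous adipose tissue (SD, n = 4 each). Blood libraries ran from 6754 to 7390 CPM, gonadal ones from 4677 to 5684 CPM and subcutaneous ones from 5066 to 6022 CPM. Every blood library had a higher summed CPM of these genes than any subcutaneous library. The same held against the gonadal libraries, where it describes the choice of the set. Both depots overlapped. The members with a KRAB match summed to 1824 ± 77.0 CPM in blood, 1333 ± 124 CPM in gonadal and 1373 ± 77.7 CPM in subcutaneous libraries. The members without one summed to 5295 ± 230.3 CPM, 3907 ± 351 CPM and 4082 ± 364 CPM in the same order. In both classes every blood library lay above every subcutaneous one. Blood and the subcutaneous depot were both measured in 3 mice, and 115, 113 and 113 of the 168 members were lower in the depot than in the blood of mice 2668, 2771 and 2807. These were 68.5%, 67.3% and 67.3% of the members, against 48.2%, 47.3% and 50.5% of all genes tested. The median difference of log2 CPM in these mice was -0.49, -0.39 and -0.29, against 0.02, 0.05 and -0.01 over all 15367 genes tested.

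**Figure D1:**
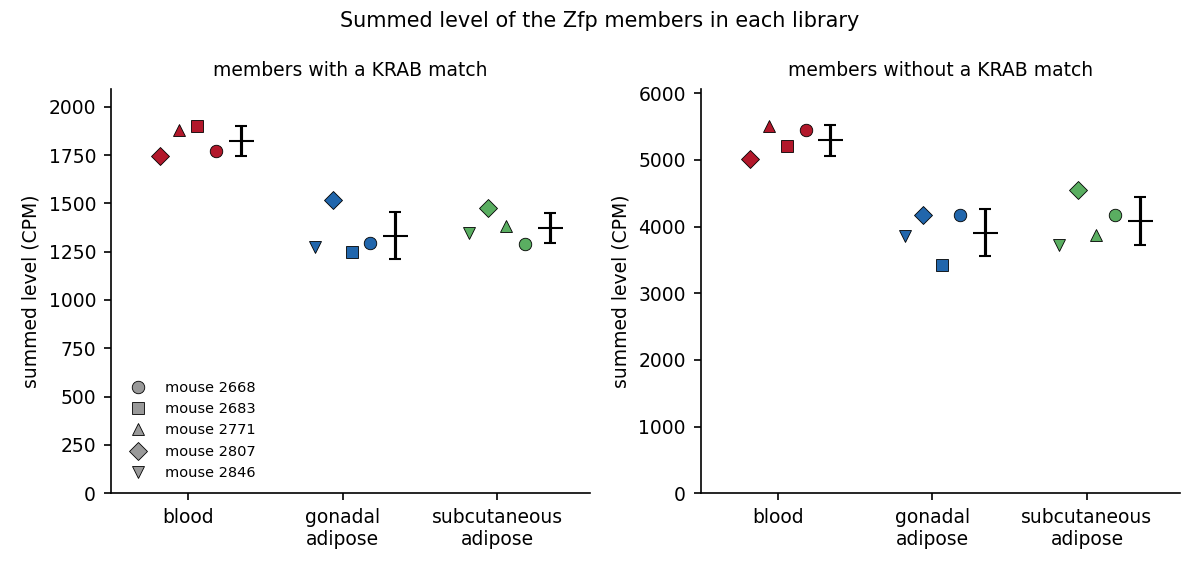
Summed level in CPM (y axis, from 0) of the members with a KRAB match (left) and without one (right) in each of the 12 libraries; marker shapes give the mouse, and the bar beside each group is the mean ± SD (n = 4). In both panels the 4 blood libraries lie above all 8 adipose libraries, and both depots overlap. The set was chosen on lower gonadal than blood levels, so the gonadal values describe that choice.

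Between subcutaneous adipose tissue and blood, 40 members were called lower and 12 higher at an adjusted p of 0.05 (edgeR). Over all genes tested, 11.4% were called lower and 15.4% higher in this comparison. The share of members called lower was 23.8% and the share called higher 7.14%. The 40 and 12 include calls that the choice of members built in. Zfp688 and Zfp189 were lower and met the 5 CPM rule through blood alone. Zfp629, Zfp658 and Zfp667 were higher and met it through fat alone. The members had a median log2 fold change of -0.40, against 0.07 for all genes tested, and 122 of the 168 fitted changes were below 0. Among all 15367 genes tested, 7237 fitted changes were below 0. In 53 members every subcutaneous library was below every blood library, and in 10 every one was above, where the shares over all genes tested were 15.7% and 13.8%. This comparison uses the same 4 blood libraries as the gonadal one, on which the set was chosen, and is not independent of it. In the fit blocked by mouse, 34 members were lower and 6 higher, so the count of higher members was cut by more than 1.5 times. Among the 103 members at 5 CPM in all 12 libraries, 29 were lower and 6 higher. Without the subcutaneous library of mouse 2846 the counts were 41 lower and 10 higher, and without that library and blood 2807 together 37 and 8. Leaving out 1 other library moved the count of higher members to 7 (blood 2807, gonadal 2846) or 4 (blood 2771, 2683 or 2668), and leaving out blood 2771 moved that of lower members to 26.

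**Figure D2:**
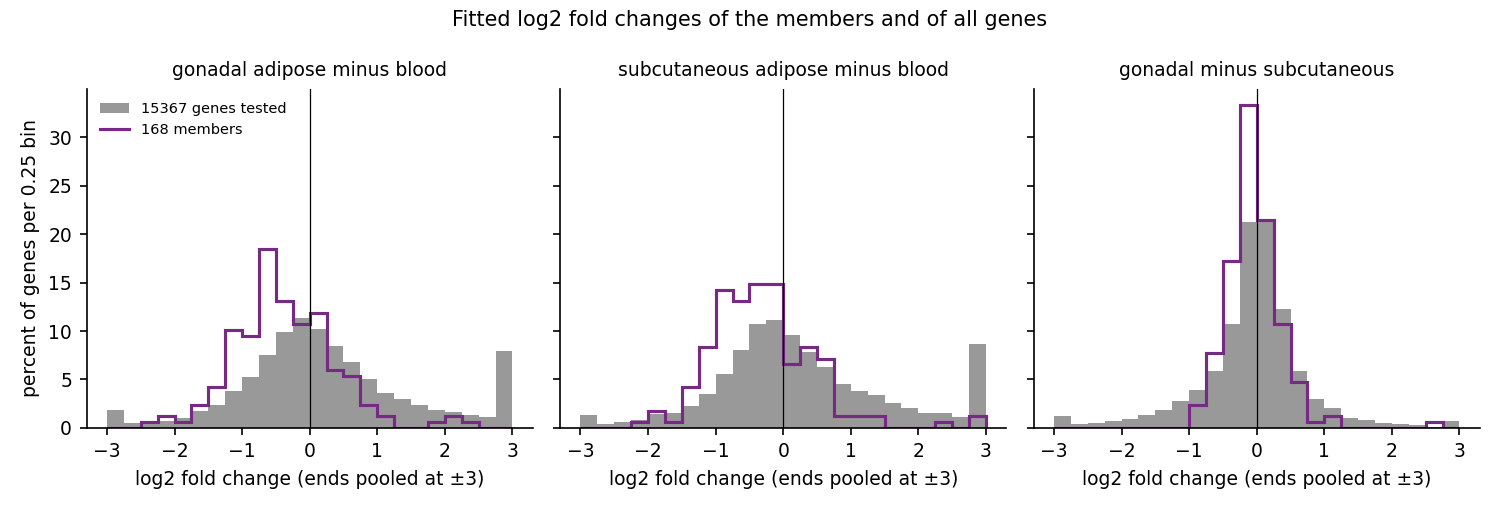
Share of genes (y axis, percent per bin of 0.25) by fitted log2 fold change (x axis) for the 168 members (line) and all 15367 genes tested (grey) in the 3 comparisons; changes beyond 3 are pooled in the end bins. The members' medians were -0.46, -0.40 and -0.08 from left to right, and those of all genes 0.08, 0.07 and -0.01.

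Lower members were found with and without a KRAB domain. Over all genes tested, 11.4% were called lower and 15.4% higher in subcutaneous adipose tissue than in blood. Of the 82 members with a KRAB match, 19 were lower and 5 higher in subcutaneous adipose tissue, and the median log2 fold change was -0.53. Of the 86 members without one, 21 were lower and 7 higher, with a median of -0.24. Among genes outside the set, 13 of 83 C2H2 genes with a KRAB match were lower and 1 higher, with a median of -0.43. C2H2 genes outside the set without a KRAB match split evenly, 44 lower and 49 higher of 265, with a median of 0.03. Zfp genes with a number of 1 or 2 digits gave 11 lower and 2 higher of 40. Zbtb genes, which pair zinc fingers with a BTB domain, gave 15 lower and 5 higher of 40. The 82 tested genes of the same name pattern that missed the 5 CPM rule gave 4 lower and 8 higher, with a median of 0.08. By finger number, 22 of the 83 members with 10 or more C2H2 patterns were lower and 5 higher, with a median of -0.50. Of the 56 with 4 to 9 patterns, 11 were lower and 2 higher, with a median of -0.36. Of the 29 with 3 or fewer, 7 were lower and 5 higher, with a median of -0.07. The differences between these classes were not tested.

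**Figure D3:**
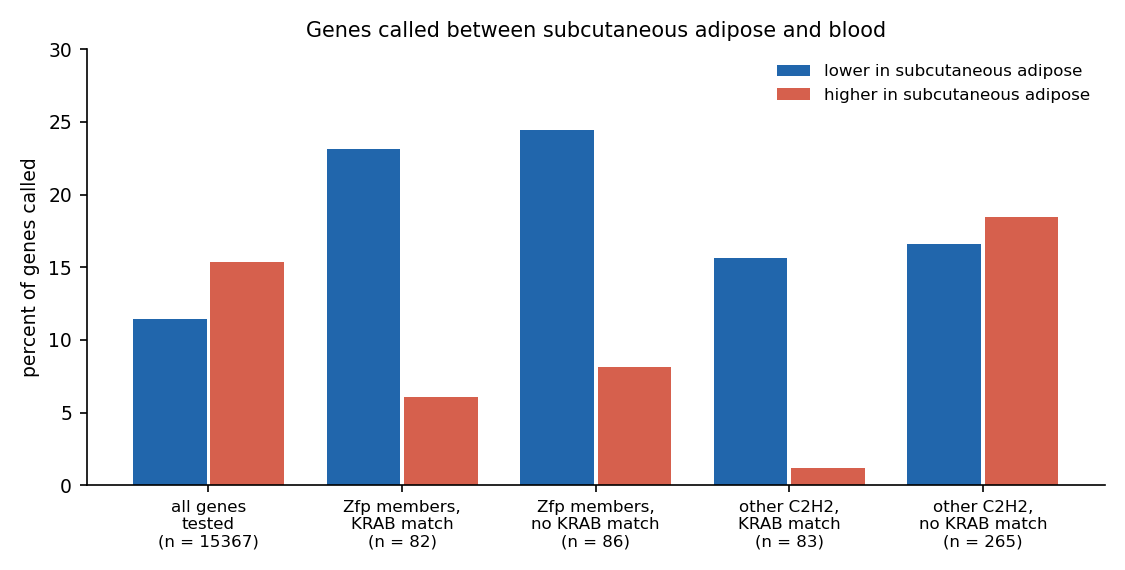
Percent of genes (y axis, from 0) called lower or higher in subcutaneous adipose tissue than in blood (edgeR, adjusted p of 0.05) among all genes tested, the members with and without a KRAB match, and C2H2 genes outside the set with and without a KRAB match; n is the number of genes in each class. Lower calls outnumber higher ones in both member classes and in the other KRAB genes.

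The largest falls among members of at least 10 CPM in 1 group spanned both classes. Zfp688, a KRAB member, was at 12.7, 10.003, 15.98 and 12.5 CPM in blood, 1.80, 3.09, 2.79 and 3.31 CPM in subcutaneous and 2.38, 1.51, 4.12 and 2.32 CPM in gonadal libraries. Zfp688 met the 5 CPM rule through blood alone, so its fall is no independent result, and the log2 fold change in the subcutaneous depot was -2.19 ± 0.37 (SE; edgeR adjusted p = 0.00126). Zfp951, another KRAB member, was at 63.7, 103, 76.8 and 92.1 CPM in blood, 25.8, 22.3, 24.96 and 17.3 CPM in subcutaneous and 21.6, 18.8, 10.6 and 21.7 CPM in gonadal libraries. It fell by 1.90 on the log2 scale in the subcutaneous depot (SE 0.24, edgeR adjusted p = 0.000222), again with no overlap. Zfp408, whose human counterpart is linked to a disease of the retinal vessels, was at 17.0 to 27.3 CPM in blood and 2.99 to 9.57 CPM in subcutaneous libraries (log2 fold change -1.91 ± 0.34, edgeR adjusted p = 0.00189). Zfp553, Zfp747 and Zfp319 had log2 fold changes of -1.88 ± 0.49, -1.71 ± 0.44 and -1.45 ± 0.27 (SE; edgeR adjusted p = 0.0145, 0.0134 and 0.00232). Zfp319 went from 48.4 ± 4.29 CPM in blood to 17.9 ± 6.46 CPM, and its subcutaneous value in mouse 2846, 27.6 CPM, stood above the other 3. All 6 calls held in every alternative in which the gene was tested, 20 for Zfp688, which was not among the genes tested with protein-coding transcripts only, and 21 for the other 5. For Zfp688, which met the rule through blood alone, holding in every alternative is no support either.

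Among the abundant members, Zfp831 was at 231, 229, 207 and 233 CPM in blood, 52.4, 114, 97.5 and 107 CPM in subcutaneous and 67.5, 98.3, 24.5 and 93.2 CPM in gonadal libraries. The groups did not overlap, and the log2 fold change in the subcutaneous depot was -1.27 ± 0.36 (SE; edgeR adjusted p = 0.0206), or -1.06 (adjusted p = 0.0525) on leaving out subcutaneous 2846, and the call was kept in 19 of 21 alternatives. Its lowest adipose values came from the gonadal library of mouse 2683 and the subcutaneous library of mouse 2846, which were also the 2 libraries with the lowest summed eosinophil genes of their depots. Zfp106, an RNA-binding protein needed by motor neurons and muscle, went from 588 to 648 CPM in blood to 255, 477, 377 and 397 CPM in subcutaneous libraries (log2 fold change -0.73 ± 0.21, edgeR adjusted p = 0.024). Zfp704 went from 337 ± 41.4 CPM to 213 ± 57.5 CPM (-0.66 ± 0.22, edgeR adjusted p = 0.0443). Zfp871, the KRAB member with the most reads, went from 180 ± 19.9 CPM to 149 ± 12.2 CPM and did not pass (-0.27 ± 0.14, adjusted p = 0.159). Zfp106 kept its call in 15 of 21 alternatives and lost it, with adjusted p of 0.0535 to 0.0598, on leaving out blood 2771, 2683 or 2668 or subcutaneous 2846 or 2771. Zfp704 kept its call in 7 of 21 and lost it, among others, in the fit blocked by mouse (adjusted p = 0.056) and on leaving out blood 2771, 2683 or 2668, gonadal 2846 or 2807, or subcutaneous 2846, 2771 or 2668 (0.0517 to 0.113).

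**Figure D4:**
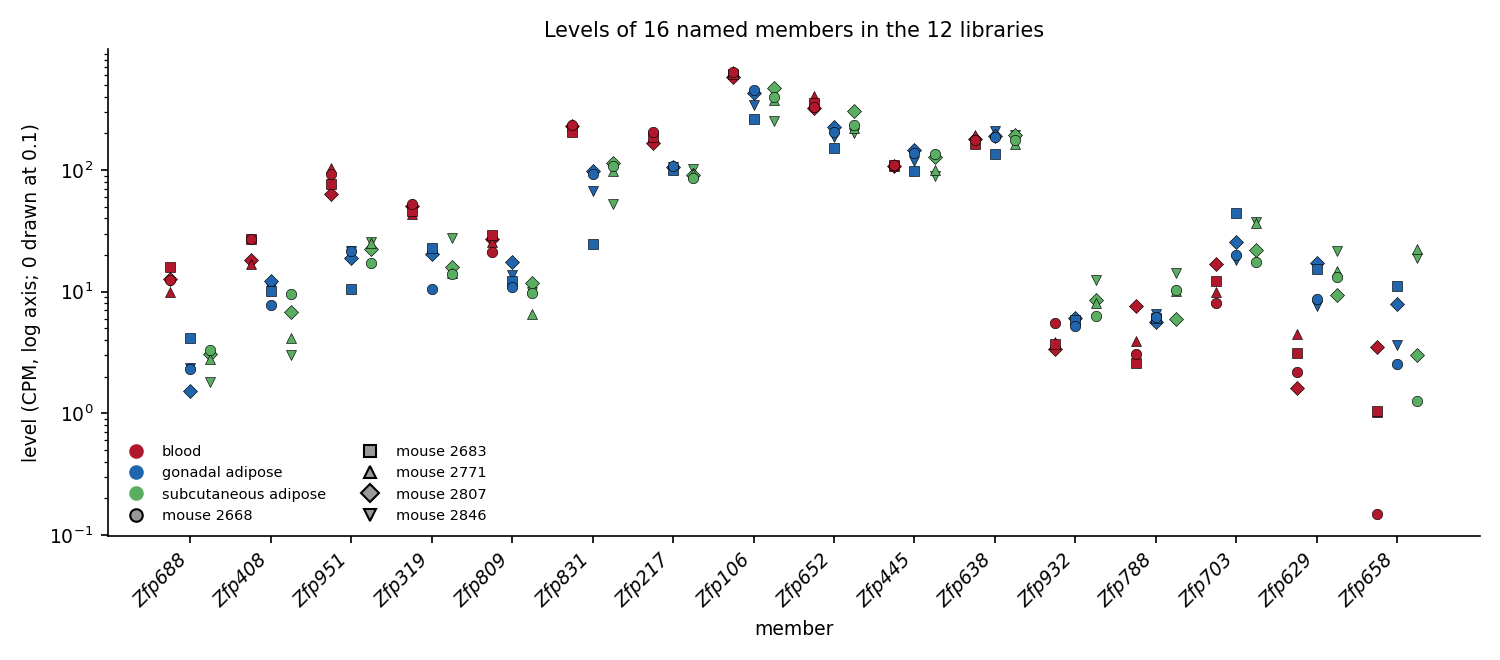
Level in CPM (y axis, log scale) of 16 named members in every library; colours give the group and marker shapes the mouse. The blood libraries lie above all adipose libraries from Zfp688 to Zfp652, the groups overlap for Zfp445 and Zfp638, and the last 5 genes have higher means in subcutaneous adipose tissue than in blood.

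Of the 12 members higher in the subcutaneous depot, 6 had a blood mean under 5 CPM and 6 one above 10 CPM. Zfp629, with 19 C2H2 patterns and no KRAB match, was at 1.602, 4.51, 3.14 and 2.18 CPM in blood, 21.6, 9.43, 14.7 and 13.2 CPM in subcutaneous and 7.67, 17.3, 15.4 and 8.77 CPM in gonadal libraries. No blood value reached 5 CPM, so Zfp629 entered the set through fat alone, and the log2 fold change in the subcutaneous depot was 2.35 ± 0.41 (SE; edgeR adjusted p = 0.0016). Zfp667 and Zfp655 are added here after their values were seen, since they and Zfp629 were the 3 higher calls that held in all 21 alternatives. Zfp667, a KRAB member below the 10 CPM used for naming and also in the set through fat alone, went from 0.909 ± 0.419 CPM to 7.49 ± 2.35 CPM (log2 fold change 3.02 ± 0.53, edgeR adjusted p = 0.00162). Zfp655 went from 33.6 ± 2.78 CPM to 54.4 ± 11.6 CPM (0.69 ± 0.17, edgeR adjusted p = 0.0122). Zfp703, a corepressor of the NET family amplified in breast cancer, was at 16.9, 9.96, 12.3 and 8.04 CPM in blood and 37.7, 21.9, 36.8 and 17.5 CPM in subcutaneous libraries (1.27 ± 0.35, edgeR adjusted p = 0.0185). The Zfp703 call was kept in 18 of 21 alternatives and lost on leaving out blood 2771, blood 2668 or subcutaneous 2771 (adjusted p of 0.0531 to 0.0591).

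Zfp658 showed the widest spread within a group, with 18.9, 3.01, 22.5 and 1.25 CPM in subcutaneous libraries of mice 2846, 2807, 2771 and 2668 and 0.149 to 3.50 CPM in blood (log2 fold change 2.99 ± 1.00, edgeR adjusted p = 0.0438). The 2 high values came from the 2 subcutaneous libraries with the highest summed macrophage markers, 3883 CPM in mouse 2846 and 5272 CPM in mouse 2771, against 2402 CPM in mouse 2807 and 1225 CPM in mouse 2668. The same 2 libraries had the highest summed T cell, B cell, monocyte and dendritic cell markers of the depot, and its lowest summed eosinophil genes. Summed fibroblast and erythroid markers were highest in these 2 libraries too. The fibroblast sums of mice 2771 and 2807 were close, at 756 and 730 CPM. Other lists, such as that of NK cells, did not follow this order. The part of any of these cells in the value was not tested. Zfp658 too had no blood value of 5 CPM. Its call was kept in 10 of 21 alternatives and lost, among others, in the fit blocked by mouse (adjusted p = 0.0793) and on leaving out blood 2771, 2683 or 2668, gonadal 2846, 2807 or 2668, or subcutaneous 2846 or 2771 (0.0502 to 0.119). Zfp788, a KRAB member, was at 2.57 to 7.66 CPM in blood and 5.94 to 14.4 CPM in subcutaneous libraries, which overlapped (1.24 ± 0.39, edgeR adjusted p = 0.0319). In the fit blocked by mouse the adjusted p was 0.122, and leaving out blood 2771, 2683 or 2668 or subcutaneous 2846, 2771 or 2668 gave 0.05001 to 0.0949, and 12 of 21 alternatives kept the call. Zfp945 (log2 fold change 1.25 ± 0.56, adjusted p = 0.113) and the BTB zinc finger gene Zfp131 (0.75 ± 0.26, adjusted p = 0.0505) did not pass. Zfp131 passed in the fit blocked by mouse (adjusted p = 0.0295) and on leaving out subcutaneous 2846 (0.0114).

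For gonadal adipose tissue against blood, the contrast behind the choice of the set, 48 members passed the threshold as lower and 7 as higher, where 11.6% and 15.4% of all genes tested were so called. In 68 members every gonadal library was below every blood library and in 10 above, where the shares over all genes tested were 17.7% and 18.6%. The median log2 fold change was -0.46. Zfp688 (-2.30 ± 0.36, SE), Zfp951 (-2.21 ± 0.25), Zfp553 (-1.91 ± 0.49), Zfp831 (-1.67 ± 0.36), Zfp747 (-1.62 ± 0.43) and Zfp748 (-1.59 ± 0.30) lay lowest among members of at least 10 CPM, and Zfp319 was at -1.40 ± 0.27. Zfp629 (2.10 ± 0.40), Zfp703 (1.20 ± 0.35) and Zfp991 (0.95 ± 0.25) were among the 5 highest of those members. Zfp991, a KRAB member, was at 29.7, 56.6, 56.9 and 44.7 CPM in gonadal and 18.8 to 29.4 CPM in blood libraries. These values and counts describe how the set was picked, and nothing is read from them.

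No member was called between gonadal and subcutaneous adipose tissue, where 0% of all genes tested were called higher and 0.00651% lower in the gonadal depot (edgeR). DESeq2 called no member either, while it called 42 of all 15367 genes higher and 110 lower. In the edgeR test 9 of the 168 members had an unadjusted p under 0.05, where 1234 of all 15367 genes tested did. The smallest adjusted p of a member was 0.517. The gonadal libraries are the same ones on which the set was chosen. Groups did not overlap for 3 of the 168 members lower in the gonadal depot (Zfp932, Zfp958 and Zfp963) and 1 higher (Zfp563). They were named after their values were seen. Over all genes tested the shares were 1.69% and 1.94%, and nothing is read from these counts. Zfp563 and Zfp963 reached 5 CPM in no library of either depot, so their separation lies below the level of the member rule. Zfp282, a KRAB member, had a fitted difference of 0.55 ± 0.20 (25.3 ± 2.89 CPM gonadal, 17.2 ± 4.28 CPM subcutaneous). The other named members with an unadjusted p under 0.05 were Zfp408 (0.77 ± 0.33), Zfp809 (0.52 ± 0.23), Zfp950 (-0.54 ± 0.24), Zfp622 (-0.60 ± 0.25), Zfp507 (-0.61 ± 0.26) and Zfp444 (-0.96 ± 0.36). Among members of at least 10 CPM in 1 group, the widest fitted difference, 1.13 ± 0.69 for Zfp608, came with gonadal values of 44.0, 15.8, 52.2 and 7.01 CPM, a spread as wide as the difference itself.

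By role, the 4 members on a list of KRAB silencers of retroelements and imprinted genes went apart. Zfp809, which recognises the primer binding site of murine leukaemia viruses and brings KAP1 to it, was at 27.4, 25.6, 29.1 and 21.1 CPM in blood, 9.88, 11.7, 6.57 and 9.79 CPM in subcutaneous and 13.8, 17.4, 12.2 and 10.9 CPM in gonadal libraries. No adipose value reached the blood range, and the subcutaneous log2 fold change was -1.45 ± 0.23 (SE; edgeR adjusted p = 0.000954). Zfp932, a silencer of endogenous retroviruses of the ERVK class, went the other way, from 3.38, 3.85, 3.72 and 5.56 CPM in blood to 12.6, 8.56, 8.05 and 6.33 CPM in subcutaneous libraries (1.09 ± 0.31, edgeR adjusted p = 0.0203). The adjusted p was 0.101 in the fit blocked by mouse and 0.0539 to 0.0606 on leaving out blood 2807, 2771 or 2683, and 14 of 21 alternatives kept the call. Zfp445, a protector of genomic imprints, was at 107 to 111 CPM in blood and 90.1 to 137 CPM in subcutaneous libraries (0.06 ± 0.16, adjusted p = 0.812). Zfp568, a repressor of a placental Igf2 promoter, gave -0.50 ± 0.26 (adjusted p = 0.166).

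Of 19 members on a list of DNA-binding regulators of transcription, 5 were lower in subcutaneous adipose tissue, 1 was higher and 13 passed in neither direction. The shares were 26.3% lower and 5.26% higher, against 11.4% and 15.4% of all genes tested. The median log2 fold change was -0.23. Zfp652, a repressor that works with CBFA2T3, went from 326, 410, 359 and 332 CPM in blood to 204, 307, 221 and 235 CPM (-0.56 ± 0.17, edgeR adjusted p = 0.0292). The groups did not overlap, but the call was kept in only 10 of 21 alternatives, being lost, among others, in the fit blocked by mouse (adjusted p = 0.0628) and on leaving out blood 2771, 2683 or 2668 or subcutaneous 2846, 2771 or 2668 (0.0503 to 0.0888). Zfp217, which works in complexes with CtBP and the demethylase LSD1, was at 167, 190, 188 and 204 CPM in blood, 101, 91.0, 93.3 and 85.6 CPM in subcutaneous and 106, 106, 99.9 and 107 CPM in gonadal libraries. The adipose values were tightly grouped below blood, and the change of -1.01 ± 0.12 had the smallest adjusted p of the named members, 8.55e-05 (edgeR). Zfp516, which drives Ucp1 and the brown fat programme in adipocytes, gave -0.10 ± 0.19 (adjusted p = 0.708) and Zfp292 gave -0.23 ± 0.17 (adjusted p = 0.345). Zfp236, with 30 C2H2 patterns, fell by 0.58 on the log2 scale (SE 0.17, edgeR adjusted p = 0.0229). It kept its call in 14 of 21 alternatives and lost it with effective length offsets, where the fitted change was -1.48 (adjusted p = 0.0714), in the fit blocked by mouse (adjusted p = 0.068) and on leaving out blood 2771, 2683 or 2668 or subcutaneous 2846 or 2771 (0.0501 to 0.0698).

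Of 7 members on a list of partners of chromatin modifiers, 1 was lower and 1 higher in subcutaneous adipose tissue. Each was 14.3% of the list, where 11.4% of all genes tested were lower and 15.4% higher. The median log2 fold change was 0.10. The lower one was Zfp592, which forms a complex with the chromatin reader Zmynd8. Its level was 110 ± 5.98 CPM in blood and 81.7 ± 10.9 CPM in the subcutaneous depot (-0.43 ± 0.13, edgeR adjusted p = 0.0271). The call was kept in 13 of 21 alternatives and lost, among others, in the fit blocked by mouse (adjusted p = 0.0502) and on leaving out blood 2771 or 2668 or subcutaneous 2846 or 2668 (0.0557 to 0.0827), and with effective length offsets the fitted change turned to 0.39 (adjusted p = 0.358). The share of Zfp592 reads on retained-intron transcripts was 10.5% ± 5.83 in the subcutaneous depot and 3.79% ± 0.747 in blood (SD, n = 4 each). Zfp644, which brings the G9a and GLP methyltransferases to DNA together with Wiz, gave 0.10 ± 0.16 (adjusted p = 0.684), and Zfp609, a partner of the cohesin loader, gave 0.35 ± 0.16 (adjusted p = 0.133). Zfp451, a SUMO ligase, gave 0.24 ± 0.14 (adjusted p = 0.229).

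Of 11 members on a list of RNA processing, translation and mitosis, 3 were higher in subcutaneous adipose tissue and 2 lower. The shares were 27.3% higher and 18.2% lower, against 15.4% and 11.4% of all genes tested. The median log2 fold change was 0.03. Zfp622, a factor of 60S ribosome assembly, was at 111, 131, 69.9 and 176 CPM in subcutaneous and 60.4 to 82.1 CPM in blood libraries, which overlapped (0.74 ± 0.25, edgeR adjusted p = 0.0458). The adjusted p was 0.0639 in the fit blocked by mouse, and leaving out any library other than gonadal 2668 or subcutaneous 2771 raised it to 0.0547 to 0.128. The call was kept in 6 of 21 alternatives. The other two, named after their values were seen, were Zfp598, the ubiquitin ligase that senses collided ribosomes (0.46 ± 0.16, edgeR adjusted p = 0.049), and Zfp326, a subunit of a complex that links transcription to splicing (0.59 ± 0.17, adjusted p = 0.0246). Zfp598 kept its call in 3 of 21 alternatives and Zfp326 in 13, with adjusted p of 0.0547 to 0.296 and 0.0653 to 0.632 in the others. Zfp638, an RNA-binding protein that joins the HUSH complex in silencing incoming retroviral DNA, was at 163 to 195 CPM in blood and 165 to 196 CPM in subcutaneous libraries (0.03 ± 0.15, adjusted p = 0.886). The 2 lower members were Zfp106, described above, and Zfp207.

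Zfp207, also called BuGZ, holds Bub3 at kinetochores in mitosis. It was at 194, 236, 212 and 193 CPM in blood, 134, 171, 137 and 138 CPM in subcutaneous and 152, 161, 118 and 157 CPM in gonadal libraries. The groups did not overlap, and the subcutaneous log2 fold change was -0.52 ± 0.14 (SE; edgeR adjusted p = 0.0186), or -0.46 (adjusted p = 0.0629) without blood 2771. The call was kept in 17 of 21 alternatives. With reads of protein-coding transcripts only, the fitted change turned to 0.08 (adjusted p = 0.791), and its transcripts were therefore looked at separately, after this had been seen. Reads assigned to transcripts annotated as targets of nonsense-mediated decay, the pathway that degrades messages with an early stop, came to 147 ± 21.1 CPM in blood, 78.3 ± 19.2 CPM in gonadal and 83.5 ± 15.4 CPM in subcutaneous libraries (SD, n = 4 each). The lowest blood value was 128 CPM and the highest adipose value 101 CPM. Reads on protein-coding transcripts came to 61.7 ± 9.75, 68.7 ± 8.73 and 61.8 ± 13.1 CPM in the same order and overlapped between groups. Decay transcripts thus held 70.3% ± 5.06 of the Zfp207 reads in blood, 52.7% ± 8.08 in gonadal and 57.5% ± 8.12 in subcutaneous adipose tissue. The difference of the Zfp207 gene total lay in the decay transcripts. The split rests on how the quantification divides reads between overlapping transcripts.

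**Figure D5:**
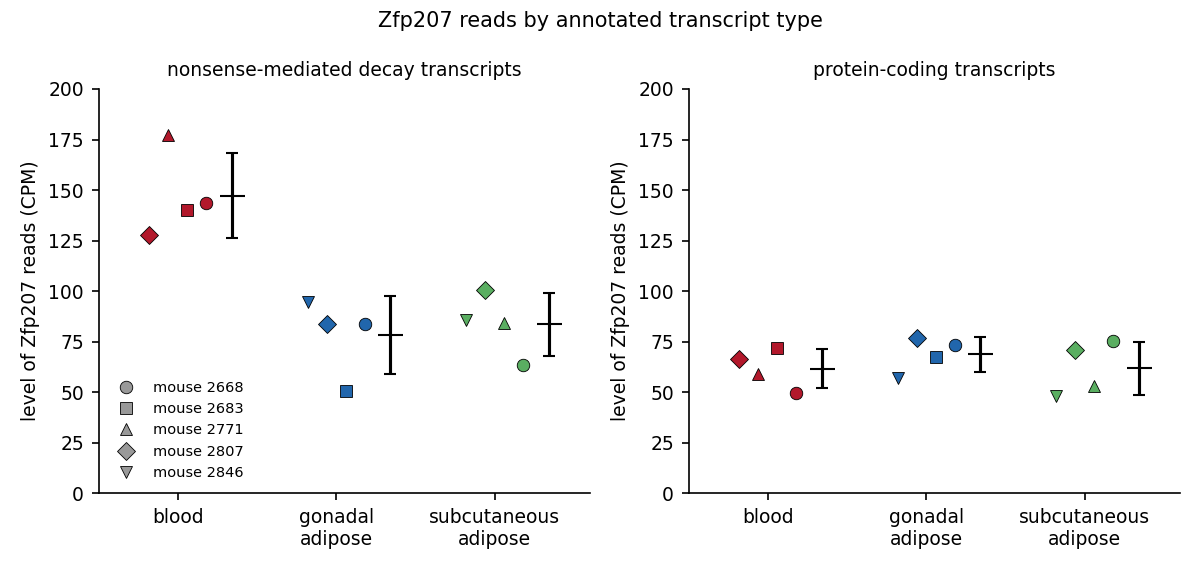
Level of Zfp207 reads in CPM (y axis, from 0) on transcripts annotated as nonsense-mediated decay (left) and protein-coding (right) in each library; marker shapes give the mouse, and the bar beside each group is the mean ± SD (n = 4). On the left the blood libraries lie above all adipose libraries, at 128 CPM or more against 101 CPM or less, and on the right the groups overlap.

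Over all members, transcripts annotated as retained introns held 7.43% ± 0.642 of the reads in blood, 8.32% ± 0.533 in gonadal and 8.90% ± 0.718 in subcutaneous libraries (SD, n = 4 each). All protein-coding genes together showed 11.1% ± 0.907, 12.3% ± 1.39 and 13.6% ± 0.785. The median share was also taken over the 88 members with any such reads, instead of the pooled share. By that measure blood was highest and not lowest, at 11.98% ± 0.897 in blood, 7.68% ± 1.41 in gonadal and 8.14% ± 1.66 in subcutaneous libraries. The part of unspliced RNA in the members' differences was not tested.

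Genes of the corepressor that KRAB proteins recruit were counted beside the members. Of 34 tested genes of a list of the KAP1 corepressor and heterochromatin, 9 were higher and 1 lower in subcutaneous adipose tissue, with a median log2 fold change of 0.13. These shares were 26.5% higher and 2.94% lower, against 15.4% and 11.4% of all genes tested. In gonadal adipose tissue against blood 9 were higher and 4 lower, with a median of 0.15. Here the shares were 26.5% and 11.8%, against 15.4% and 11.6% of all genes tested, so the lower share was near that of all genes. Trim28, which encodes KAP1, was at 51.6 ± 5.42 CPM in blood and 47.7 ± 5.92 CPM in the subcutaneous depot (-0.12 ± 0.18, adjusted p = 0.665), and Setdb1 gave -0.24 ± 0.16 (adjusted p = 0.292). Cbx5, the HP1 alpha protein, went from 6.50 ± 3.49 CPM in blood to 29.1 ± 9.33 CPM in subcutaneous and 30.7 ± 3.45 CPM in gonadal libraries (log2 fold changes 2.16 ± 0.36 and 2.24 ± 0.36, edgeR adjusted p = 0.00131 and 0.000956). Rbbp7, a histone chaperone of the NuRD and PRC2 complexes, rose by 1.14 ± 0.20 and 1.12 ± 0.20 on the log2 scale (edgeR adjusted p = 0.0016 and 0.00163). The NuRD subunit Mta1 rose by 0.73 ± 0.20 and 0.98 ± 0.20 (edgeR adjusted p = 0.0169 and 0.0036), and the maintenance methyltransferase Dnmt1 by 0.68 ± 0.13 and 0.74 ± 0.13 (edgeR adjusted p = 0.00245 and 0.00153). Uhrf1, the partner of Dnmt1, was higher in gonadal libraries at 5.61 ± 4.50 CPM against 0.334 ± 0.356 CPM in blood (4.03 ± 1.25, edgeR adjusted p = 0.0308). The only lower call in both depots was Zmynd8, the partner of Zfp592 (-0.50 ± 0.12 and -0.62 ± 0.12, edgeR adjusted p = 0.0104 and 0.00341).

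The members lie on 20 chromosomes, with 42 on chromosome 7, 18 on chromosome 17 and 13 on chromosome 8. With gaps of at most 200 kb, 48 members formed 11 runs of 3 or more neighbours, and 36 of these 48 had a KRAB match. In the run chr7:127233061-127615797 (GRCm38, with Zfp553, Zfp768, Zfp747, Zfp764, Zfp688 and Zfp629), 3 members were lower and 1 higher in subcutaneous adipose tissue. The shares over all genes tested were 11.4% lower and 15.4% higher. Zfp688 and Zfp629, which had log2 fold changes of -2.19 and 2.35, are adjacent members of this run. Zfp688 met the 5 CPM rule through blood alone and Zfp629 through fat alone, so their opposite directions were built into the choice. In the run chr13:67254918-67687071 all 6 members had a KRAB match, and Zfp748 and Zfp738 were lower in the subcutaneous depot while Zfp953 (-0.70 ± 0.35, adjusted p = 0.154), Zfp458 (-0.10), Zfp595 (-0.11) and Zfp429 (-0.02) did not pass. Zfp748 was at 15.4, 18.5, 24.4 and 19.5 CPM in blood and 13.8, 6.10, 9.79 and 6.99 CPM in subcutaneous libraries (-1.10 ± 0.30, edgeR adjusted p = 0.0171), or -0.98 (adjusted p = 0.0582) without blood 2683. Zfp748 and Zfp738 each kept the call in 19 of 21 alternatives. Near-identical copies can share reads, so values of single genes within such runs are less certain than those of lone genes.

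The start regions of the chromosome 13 run are printed because all 6 carry the same motif although only 2 of the genes were called in the subcutaneous comparison. Each line gives the 200 bases before the gene start from RefSeq (GRCm38.p6, minus strand, 5′ to 3′), and capitals mark the letters of the binding site of ZNF143, a zinc finger activator of many housekeeping promoters, here on the strand opposite to the gene.
Zfp458, chr13:67268995-67269194: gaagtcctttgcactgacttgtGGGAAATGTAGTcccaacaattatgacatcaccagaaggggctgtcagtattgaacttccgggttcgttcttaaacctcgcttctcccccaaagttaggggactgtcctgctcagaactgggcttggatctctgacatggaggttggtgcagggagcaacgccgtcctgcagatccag
Zfp595, chr13:67332561-67332760: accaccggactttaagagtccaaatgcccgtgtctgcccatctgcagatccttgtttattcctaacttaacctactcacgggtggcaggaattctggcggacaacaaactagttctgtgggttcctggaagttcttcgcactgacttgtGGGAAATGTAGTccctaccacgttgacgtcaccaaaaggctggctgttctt
Zfp953, chr13:67360573-67360772: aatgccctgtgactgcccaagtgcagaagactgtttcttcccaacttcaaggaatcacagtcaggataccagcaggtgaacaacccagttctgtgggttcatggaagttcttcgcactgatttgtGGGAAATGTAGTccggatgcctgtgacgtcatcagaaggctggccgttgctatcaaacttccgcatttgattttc
Zfp429, chr13:67399768-67399967: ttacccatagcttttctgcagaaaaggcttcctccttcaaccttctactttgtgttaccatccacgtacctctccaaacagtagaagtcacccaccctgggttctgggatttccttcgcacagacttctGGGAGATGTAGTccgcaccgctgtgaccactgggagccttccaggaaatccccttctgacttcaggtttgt
Zfp748, chr13:67553153-67553352: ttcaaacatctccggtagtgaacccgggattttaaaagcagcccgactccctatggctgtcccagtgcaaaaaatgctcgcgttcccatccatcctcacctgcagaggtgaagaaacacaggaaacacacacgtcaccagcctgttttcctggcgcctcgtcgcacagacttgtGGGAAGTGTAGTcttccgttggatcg
Zfp738, chr13:67683513-67683712: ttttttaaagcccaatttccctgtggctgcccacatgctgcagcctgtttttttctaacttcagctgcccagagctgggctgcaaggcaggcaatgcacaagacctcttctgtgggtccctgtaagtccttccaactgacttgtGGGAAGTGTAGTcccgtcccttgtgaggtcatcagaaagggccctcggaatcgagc
In the printed direction the first base of the site lay 26 bases before the start in Zfp748, 51 in Zfp595, 56 in Zfp738, 71 in Zfp429, 75 in Zfp953 and 178 in Zfp458. Among the 15 pairs of these windows the longest run of identical bases was 8 to 27 bases, and in 12 pairs it touched the site. The longest, 27 bases between Zfp458 and Zfp595, was gcactgacttgtGGGAAATGTAGTccc. Zfp738 and Zfp748, the 2 members called in the subcutaneous comparison, shared the 20 bases gacttgtGGGAAGTGTAGTc.

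A RefSeq promoter of 250 bases before to 50 after the start was found for 143 of the 168 members. The ZNF143 site, searched as its consensus of 12 letters, 2 of them free, on both strands, was in 19 of them, or 13.3%, against 4.42% of the 10111 genes tested with an entry and 1.98% of all 27025 entries. Of the 19, 6 belong to the chromosome 13 run, whose windows share bases around the site, so the 19 are not independent promoters. The site lay upstream of the start in all 19, at most 75 bases away in 13. Its most common form, read on its own strand, was ACTACATTTCCC. Of these 19 members 4 were lower and none higher in subcutaneous adipose tissue, and their median log2 fold change was -0.49. Of the 124 members without the site 28 were lower and 11 higher, with a median of -0.40. Over all genes tested, 11.4% were lower and 15.4% higher. The medians of members with and without the site were thus close, and the difference was not tested. Zfp189, named after its values were seen as the member with the site and the lowest fitted change, was at 6.78 ± 1.63 CPM in blood and 2.52 ± 1.22 CPM in the subcutaneous depot. The other motifs searched, also on both strands, were the GC box GGGCGG (55.9% of members, 63.0% of genes tested), the CCAAT box CCAAT (46.9% and 38.7%), the TATA box TATAAA (4.90% and 7.26%), an ETS site CCGGAAGT (12.6% and 8.42%), an NRF1 site (4.20% and 2.08%) and a YY1 site ATGGCGG (11.9% and 8.33%). A match describes letters and not binding.

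Genes of other cell types moved with the groups. The summed level of 12 neutrophil genes, led by Retnlg and Mmp9, was 3104 to 4642 CPM in blood, 387 to 814 CPM in gonadal and 427 to 1313 CPM in subcutaneous libraries. The sum of 15 macrophage genes, led by Apoe and Mrc1, was 40.2 to 614 CPM, 1003 to 4272 CPM and 1225 to 5272 CPM in the same order. For 15 fibroblast genes, led by Gsn and Col3a1, the sums were 354 to 473 CPM, 395 to 1069 CPM and 592 to 6113 CPM, the last in the subcutaneous library of mouse 2846. T cell genes, led by Cd4 and Il7r, came to 18.5 to 75.5 CPM, 12.9 to 72.0 CPM and 46.0 to 354 CPM, and B cell genes, led by Ighm and Ebf1, to 137 to 603 CPM, 36.9 to 116 CPM and 59.5 to 279 CPM. Monocyte genes, led by Fn1 and Csf1r, summed to 479 to 2262 CPM in blood, 1221 to 7686 CPM in gonadal and 666 to 2115 CPM in subcutaneous libraries, and dendritic cell genes, led by Cd74 and H2-Aa, to 106 to 1728 CPM, 1057 to 8586 CPM and 887 to 3107 CPM. The highest blood sums of B cell, monocyte, macrophage and dendritic cell genes were those of mouse 2807. Erythroid genes, led by Hba-a1 and Hba-a2, came to 8371 CPM in the blood library of mouse 2771 and to 17.7 to 144 CPM in the other 3 blood libraries. A list of 24 early response genes, which tissue handling can also raise, came to 3224 to 3806 CPM in blood, 16757 to 22243 CPM in gonadal and 22430 to 30604 CPM in subcutaneous libraries. The part of these cells and of handling in the members' differences was not tested.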

How the data were processed

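Sorted eosinophils gave the RNA of 12 libraries, made, per the labels, with a stranded total RNA kit for low input. The submitters' processing notes name Trim Galore 0.6.4, Salmon 1.6.0, DESeq2 1.30.1 and the mm10 build. The authors deposited estimated counts per transcript, which need not be whole because Salmon divides reads between transcripts, and TPM values and effective lengths beside them. The deposited TPM values were summed per gene and used only to compare levels between genes. The strand setting and the annotation release of the quantification are not given in the sources used here.

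GENCODE M21 (GRCm38) was joined by transcript identifier without version numbers. Of 140992 transcripts 139791 matched, and the rest, with 0.351% to 0.538% of the reads of a library, stayed out of library sizes and tests. Estimated counts were summed per gene, for 54115 genes, and rounded. edgeR 4.0.16 in R 4.3.3 (robust quasi-likelihood test, TMM, filterByExpr by group) was fitted to all 12 libraries with group as the only term. The Benjamini-Hochberg adjustment ran over 15367 genes, with a threshold of 0.05. In the text, CPM values use TMM-scaled totals, ± after a CPM value is the SD over 4 libraries and ± after a log2 fold change is its SE. The member rule used unscaled CPM. P-values measure the spread between mice, 5 in all. The fit was tested on simulated data for the gonadal comparison, where it called 26 of 50 genes raised 4-fold, 29 of 47 lowered 4-fold, 9 of 50 raised 2-fold, 4 of 47 lowered 2-fold and 1 of 14688 left alone. Reads were amplified by PCR, so counts are not independent molecules.

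Members, gene lists and comparisons were chosen with earlier results of these data known. Named members are, among those with a group mean of at least 10 CPM, the 6 highest and 6 lowest fitted changes of each comparison, the 8 with the most reads and up to 4 with the most reads of each role list. They are joined by the 4 largest called changes of the KAP1 list with Trim28 and Setdb1, and by the 2 most abundant genes of each marker list. C2H2 patterns (2 cysteines and 2 histidines at set spacings) were counted in the longest annotated coding sequence. The KRAB match is a score over 28 positions of the A box consensus with a minimum of 13, set after the gap between scores of 10 and 13 was seen. Promoters came from RefSeq (GRCm38.p6, first listed start per gene). Mouse numbers mark the animal and so pair samples. Deviations from group means correlated at -0.111 to 0.358 over 9 same-mouse pairs, with a mean of 0.0842 against -0.0188 for 39 pairs of different mice. Alternatives were mouse as a block, DESeq2 1.42.0, other scalings, no filter, length offsets, protein-coding transcripts only, other member rules and leaving out libraries. The labels name no batch.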

Additional observations from a re-analysis of the deposited data

Results flagged for a closer look

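In the 120 groups of 4 libraries checked for the 40 named members, 8 held 1 value far from the other 3, and chance alone flags about 1 in 20 groups. Both lowest and highest values occurred. Zfp180 in the subcutaneous library of mouse 2846 was at 3.29 CPM, below 10.9 to 12.3 CPM in the other 3, and Zfp319 in the same library was at 27.6 CPM, above 14.1 to 16.004 CPM. That library was the shallowest. Zfp207 was at 171 CPM in the subcutaneous library of mouse 2807, above 134 to 138 CPM. Zfp217 was at 99.9 CPM in the gonadal library of mouse 2683, below 106 to 107 CPM, a gap small against its difference from blood. Zfp622 was at 112 CPM in the gonadal library of mouse 2668, above 67.9 to 73.3 CPM. In blood, Zfp609 was at 38.6 CPM in mouse 2807, below 48.3 to 49.97 CPM, Zfp831 at 207 CPM in mouse 2683, below 229 to 233 CPM, and Zfp871 at 210 CPM in mouse 2771, above 167 to 172 CPM.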

How the results depend on the processing

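For subcutaneous adipose tissue against blood, the 12 higher members became 6 with mouse as a replicate block, 5 with library totals only, 5 with no filter on low counts, 20 over every tested gene of the name pattern, 7 with a minimum of 10 CPM and 6 with 5 CPM in all 12 libraries, and 4 to 11 on leaving out 1 library. The 40 lower members became 26 with effective length offsets and 26 to 44 on leaving out 1 library. For gonadal adipose tissue against blood, effective length offsets gave 4 higher and 27 lower, and leaving out 1 library gave 2 to 7 higher and 30 to 57 lower. The lowest of these came without blood 2771 (2 higher, 30 lower), and without blood 2668 or gonadal 2807 the higher members were 3. The counts between the depots were 0 under every alternative. DESeq2 called 16 higher and 47 lower in the subcutaneous depot. Library totals as the only scaling moved the median log2 fold change of all genes between the depots from -0.01 to 0.13, and that of the members from -0.08 to 0.07. Fitted directions turned for Zfp207 with protein-coding transcripts only (0.075 in the subcutaneous and 0.14 in the gonadal depot, against -0.52 and -0.51) and for Zfp592 with effective length offsets (0.39 in the subcutaneous depot, against -0.43). For Zfp207 the reads removed were those of decay transcripts, and for Zfp592 the cause was not tested. Mouse as a block moved no count of members other than the 12 by over 1.5 times. The subcutaneous library of mouse 2846 had the fewest reads.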
